A study of Mus musculus with 9 samples.

Results

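Notch receptors, their ligands and their classical targets were measured through 10 genes, the receptors Notch1, Notch2, Notch3 and Notch4, the ligands Dll1, Jag1 and Jag2, and the target genes Hes1, Hey1 and Heyl. They were found by their symbols, and every probe set that the platform annotation gave to exactly 1 of these symbols was kept, which gave 18 probe sets out of 22626 and 10 genes out of 12393. The RNA came from 3 kinds of mouse culture with 3 arrays each. Tumorspheres (TMS) were grown from bulk cells of independent mammary tumors of MMTV-Neu [N2O2] mice, in which the MMTV promoter drives the Neu oncogene in mammary epithelium, and the age of these mice was not given. The study named FVB/N mice as syngeneic hosts for its mammary tumor cells, which is the strain of the mammosphere donors. Mammospheres (MMS) were grown from bulk mammary epithelial cells of virgin female FVB/N mice aged 6 to 8 weeks, with no transgene named. Both were kept non-adherent in stem cell medium, passaged every 7 days and collected between passages 3 and 5. For the third group (diffMMS), dissociated mammosphere cells were plated on collagen in medium with serum and left to differentiate for 7 days, so that substrate, medium and differentiation changed together. The study used TMS to model tumor-initiating cells, MMS to model progenitors and stem cells of the gland, and diffMMS to model its differentiated epithelium, each approximately. TMS and MMS therefore differed in transgene, tumor origin and possibly donor age at once, and these cannot be told apart here.

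Notch receptors are membrane proteins that are cut when a Delta-like or Jagged ligand on a neighbouring cell binds them. The released intracellular domain enters the nucleus, joins the DNA-binding protein Rbpj and Mastermind co-activators, and switches on target genes such as those of the Hes and Hey families, which encode transcriptional repressors. In the mammary gland the pathway is known for its part in luminal cell fate and in progenitor cells, and activated Notch1 and Notch4 alleles cause mammary tumors in mice.

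The labels were set against marker genes of the cell types such cultures could hold. In TMS, 9 of 12 luminal markers were higher than in MMS and 0 lower, with summed intensities of 4813 to 7960 in TMS, 853 to 950 in MMS and 890 to 1081 in diffMMS. Mean log2 intensities of the epithelial adhesion gene Epcam were 9.86 in TMS, 6.31 in MMS and 6.07 in diffMMS, and those of the epithelial cadherin Cdh1 were 5.96, 4.18 and 4.12. In MMS, 16 of 22 luminal and basal markers had a mean below the median of all probe sets, as had 14 of 22 in diffMMS and 9 of 22 in TMS, although brightness also depends on the probes. Of 10 basal and myoepithelial markers 6 were higher and 0 lower in diffMMS than in MMS, with sums of 3051 to 4513 against 923 to 992, and sums of 990 to 1073 in TMS. These 6 were Trp63 (0.32) and the contractile genes Acta2 (2.60), Myl9 (3.26), Mylk (1.98), Cnn1 (0.83) and Myh11 (0.19), given as log2 differences. Smooth muscle and activated fibroblasts also express the contractile genes. The keratin Krt14 had means of 6.81 in TMS, 5.58 in MMS and 5.58 in diffMMS. Its TMS arrays lay far apart, at 5.83, 6.56 and 8.03. Fibroblast markers were bright in every group, with summed intensities over 10 genes of 29994 to 33834 in TMS, 36691 to 38004 in MMS and 44631 to 47732 in diffMMS. Their median log2 intensities ran otherwise, at 11.51 to 11.94 in TMS, 11.97 to 12.02 in MMS and 10.96 to 11.22 in diffMMS. In diffMMS against MMS 5 were higher and 3 lower (Dcn, Lum and Fap). In TMS 1 was higher and 2 were lower than in MMS, and 2 were higher and 5 lower than in diffMMS. Levels of different probe sets do not give the makeup of a culture, so the epithelial label of MMS and diffMMS was neither borne out nor refuted by these markers, and the groups are called by their labels. Of 11 macrophage markers 5 were higher in TMS than in MMS and 0 lower, with sums of 1574 to 2525 against 734 to 824, and sums of 890 to 1315 in diffMMS. All 9 measured proliferation genes were lower in TMS than in MMS and lower again in diffMMS, with sums of 1999 to 2222 in TMS, 3018 to 3228 in MMS and 972 to 1071 in diffMMS. No marker was listed at 0. The part of any of these cell types in the Notch results was not tested, and in such bulk RNA fewer cells of a type and less RNA per cell cannot be told apart. The array codes of TMS form a run apart from those of MMS and diffMMS, so array run and tumor origin cannot be told apart either.

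Upstream sequence was taken from RefSeq (GRCm38.p6), as the 250 bases before the transcription start. A window was held for 7 of the 10 genes, 8 windows in all, and none for Hes1, Hey1 or Heyl. Shown here are those of Notch1, Notch3 and Dll1, the genes of the group with a window that were higher in TMS than in both other cultures at every probe set. Capitals mark GGGCGG, the core of the GC box, on either strand (CCGCCC where it lies on the other), counted with overlaps.
Notch1, chr2:26503823-26504072, minus strand: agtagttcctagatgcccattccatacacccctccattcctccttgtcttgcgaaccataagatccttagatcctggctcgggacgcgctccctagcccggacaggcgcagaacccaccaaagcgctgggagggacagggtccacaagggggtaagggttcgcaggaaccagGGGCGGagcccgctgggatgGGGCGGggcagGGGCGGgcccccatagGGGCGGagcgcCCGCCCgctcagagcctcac
Notch3, chr17:32166891-32167140, minus strand: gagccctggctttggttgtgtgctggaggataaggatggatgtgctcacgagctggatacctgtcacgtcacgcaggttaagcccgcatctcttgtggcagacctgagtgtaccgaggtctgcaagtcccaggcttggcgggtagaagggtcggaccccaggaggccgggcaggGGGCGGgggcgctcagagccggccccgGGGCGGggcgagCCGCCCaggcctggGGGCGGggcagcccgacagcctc
Dll1, chr17:15375824-15376073, minus strand: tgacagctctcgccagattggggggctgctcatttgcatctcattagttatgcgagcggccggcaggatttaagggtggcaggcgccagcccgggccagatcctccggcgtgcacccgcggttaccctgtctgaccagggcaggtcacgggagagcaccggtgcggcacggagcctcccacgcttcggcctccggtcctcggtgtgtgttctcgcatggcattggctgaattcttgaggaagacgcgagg
Dll1, chr17:15376933-15377182, minus strand: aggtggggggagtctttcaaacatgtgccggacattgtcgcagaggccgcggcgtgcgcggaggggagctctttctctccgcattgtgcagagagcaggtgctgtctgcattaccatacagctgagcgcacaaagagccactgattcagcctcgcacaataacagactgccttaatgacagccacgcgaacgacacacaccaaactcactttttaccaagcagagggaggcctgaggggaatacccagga
The GC box was found 5 times before Notch1 and 4 times before Notch3, and in neither Dll1 window, which belong to different annotated starts. Over the 8 windows it lay in 4, the other two being those of Notch2 and Jag2, and it lay in 32.7% of the 32851 windows of the whole table. TGGGAA, the core of the site that Rbpj binds, CACGTG, an E-box, and TATAAA, the TATA box core, were searched on both strands and lay in 0 of the 8 windows. Over all windows they lay in 21.6%, 6.02% and 12.4%. The letters of a window say nothing about binding in these cultures.

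Values below are log2(intensity + 8.67) after quantile normalization, for arrays 1 to 3 of each group in an order that carries no meaning, and tests are limma fits over all probe sets with Benjamini-Hochberg adjusted p, called at 0.05. Between TMS and MMS, 7 of the 18 probe sets were called, 6 higher in TMS and 1 lower, where 14.3% of all probe sets were called, 6.5% higher and 7.77% lower. The higher ones belonged to Notch1, Notch3, Dll1 and Hey1 and the lower one to Heyl. Between TMS and diffMMS 9 of 18 were called, 7 higher (Notch1, Notch3, Dll1, Hes1 and Hey1) and 2 lower (Notch4 and Heyl), where 23.7% of all were called, 12.2% higher and 11.5% lower. Between diffMMS and MMS 4 of 18 were called (Notch1, Notch2, Notch3 and Heyl), all lower in diffMMS, where 33.1% of all were called, 16.9% lower and 16.2% higher. Centring each array on its median moved the share of higher calls over all probe sets from 45.6% to 34.0% in TMS minus MMS, with 5 members higher and 2 lower, and from 48.9% to 38.0% in diffMMS minus MMS. The shares of members called in the TMS comparisons, 38.9% and 50%, were above those of all probe sets. The share in diffMMS against MMS, 22.2%, was below it, but this turned with the scaling, since 44.4% of members and 37.0% of all were called with the values as deposited, and 38.9% and 33.4% with arrays centred on their median. No member was called higher in diffMMS than in MMS by limma, and 3 had an unadjusted p under 0.05. That 0 depended on the scaling, since 3 members were higher with the values as deposited and 2 with arrays centred on their median. The arrays of the groups did not overlap at 12 members in TMS against MMS, where this held for 33.3% of all probe sets, at 9 in TMS against diffMMS, beside 37.5%, and at 9 in diffMMS against MMS, beside 51.6%. The members' median log2 difference was 0.12 for TMS minus MMS, 0.04 for TMS minus diffMMS and -0.03 for diffMMS minus MMS, beside 0.00, -0.02 and 0.03 over all probe sets. The 3 comparisons share their arrays and do not count as separate evidence.

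**Figure D1:**
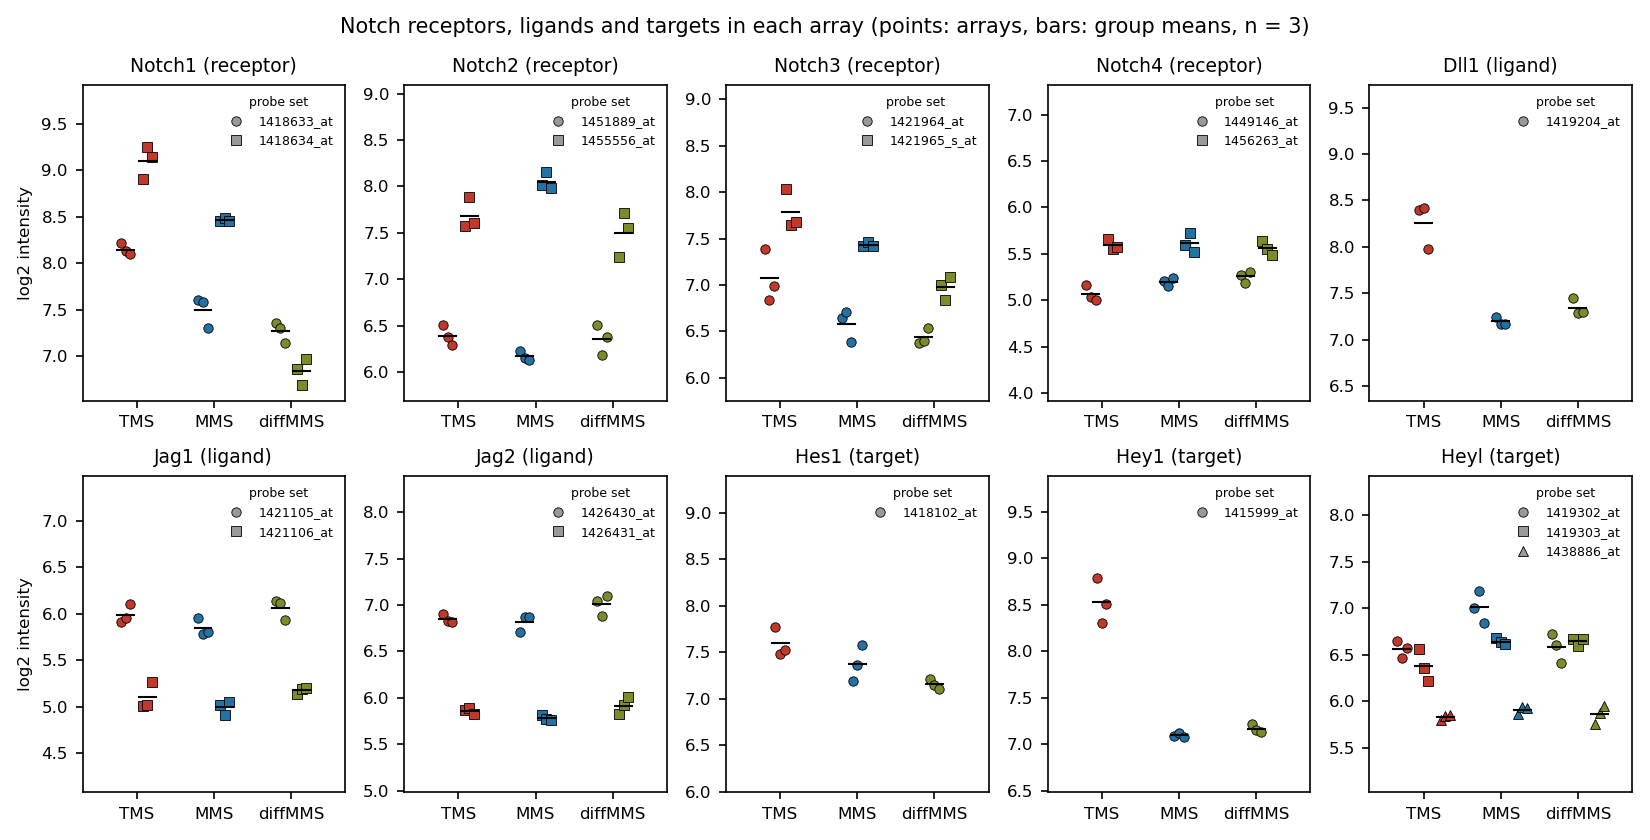
Log2 intensity (vertical axes, scaled per gene) of the 18 probe sets of the 10 genes in TMS, MMS and diffMMS, with 1 point per array, a bar at the mean of 3 arrays and a marker shape per probe set. Hey1 and Dll1 lie above both other cultures in all 3 TMS arrays, and the Notch1 probe set 1418634_at falls from TMS through MMS to diffMMS without overlap.

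Among the receptors, Notch1 stood highest in TMS at both of its probe sets. The probe set 1418634_at read 8.90, 9.25 and 9.15 in TMS, 8.45, 8.49 and 8.46 in MMS, and 6.86, 6.68 and 6.97 in diffMMS. The 3 groups followed each other in that order and none overlapped. The difference between TMS and MMS was 0.64 on the log2 scale (95% interval 0.42 to 0.85), a 1.55-fold higher intensity, with a limma adjusted p of 0.00154. Between TMS and diffMMS it was 2.26 (2.04 to 2.48), 4.79-fold, with a limma adjusted p of 1.68e-08. From MMS to diffMMS the level dropped by 1.63 (interval of the difference -1.84 to -1.41), with a limma adjusted p of 2.51e-07, and these calls were kept under all alternatives tried. The other probe set, 1418633_at, read 8.22, 8.13 and 8.10 in TMS, 7.61, 7.59 and 7.30 in MMS, and 7.36, 7.30 and 7.14 in diffMMS. TMS lay above both other cultures, by 0.65 over MMS (0.44 to 0.86, limma adjusted p 0.00102) and by 0.88 over diffMMS (0.67 to 1.09, limma adjusted p 3.41e-05). MMS and diffMMS overlapped at this probe set, with a difference of -0.23 (-0.44 to -0.03, limma adjusted p 0.0801), which was called under 4 alternatives (adjusted p 0.0239 to 0.0442), both other scalings among them.

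The Notch1 probe sets thus gave steps of 0.64 and 0.65 between TMS and MMS, but of -1.63 and -0.23 between MMS and diffMMS. Within arrays, 1418634_at minus 1418633_at was 0.69, 1.12 and 1.05 in TMS and 0.85, 0.90 and 1.15 in MMS, and -0.49, -0.62 and -0.17 in diffMMS. The sign turned in diffMMS, in 3 of 3 arrays. This difference was noticed in the data and given no test, and the size of the Notch1 step on differentiation depends on which probe set is read.

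**Figure D2:**
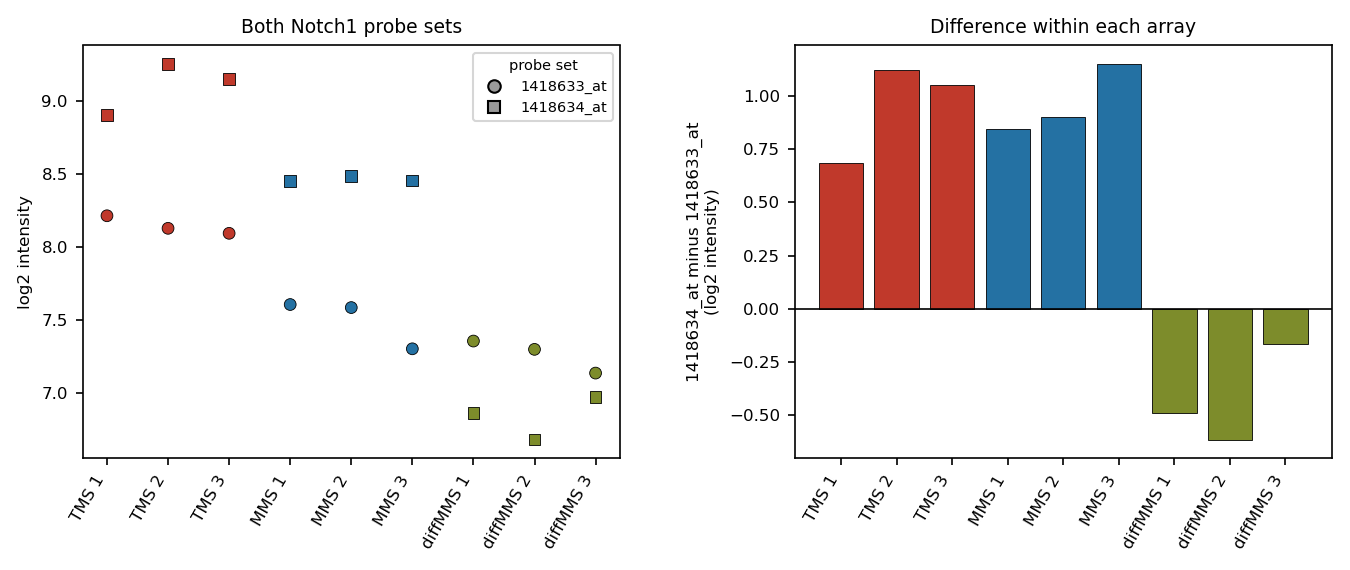
Left, log2 intensity of the 2 Notch1 probe sets in each of the 9 arrays, coloured by culture, and right, their difference within each array on the log2 scale, as bars from 0. The difference is above 0 in the 6 TMS and MMS arrays and below 0 in the 3 diffMMS arrays.

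Notch3, a receptor best known from vascular smooth muscle, was also higher in TMS, with smaller steps. Probe set 1421965_s_at, whose suffix marks probes that can match further transcripts, read 8.03, 7.65 and 7.68 in TMS, 7.42, 7.47 and 7.42 in MMS, and 7.00, 6.84 and 7.09 in diffMMS, without overlap. TMS exceeded diffMMS by 0.81 (0.58 to 1.04, limma adjusted p 0.000147) and MMS by 0.35 (0.12 to 0.58, limma adjusted p 0.0456), while diffMMS lay below MMS by a difference of -0.46 (-0.69 to -0.23, limma adjusted p 0.00568). At 1421964_at the arrays read 7.39, 6.84 and 6.99 in TMS, 6.65, 6.71 and 6.39 in MMS, and 6.37, 6.40 and 6.54 in diffMMS. TMS array 1 was the highest at both probe sets, and MMS and diffMMS overlapped at this one. Here TMS exceeded MMS by 0.49 (0.20 to 0.78, limma adjusted p 0.0271) and diffMMS by 0.64 (0.35 to 0.93, limma adjusted p 0.00412), and diffMMS minus MMS was -0.14 (-0.43 to 0.14, limma adjusted p 0.431). The TMS against MMS calls were near the threshold. They were lost at 1421964_at under 4 alternatives (adjusted p 0.0542 to 0.124) and at 1421965_s_at under 8 (0.0523 to 0.137), and leaving out TMS array 1, MMS array 1 or MMS array 3 ended both calls, while MMS array 2 and diffMMS arrays 1 and 3 did so at 1421965_s_at. The Notch3 calls against diffMMS were kept. Of 7 pericyte markers, a cell type in which Notch3 is used, 0 were higher and 1 (Mcam, -0.43) was lower in TMS than in MMS. Against diffMMS 1 was higher in TMS and 0 were lower. That was Cspg4 (0.78, limma adjusted p 0.00347), with means of 8.39 in TMS, 7.97 in MMS and 7.61 in diffMMS. Between diffMMS and MMS 0 were called. The sums were 620 to 771 in TMS, 597 to 637 in MMS and 527 to 580 in diffMMS. Of the contractile genes, which smooth muscle expresses, Acta2 was lower in TMS than in diffMMS (-2.78, limma adjusted p 8.93e-08). It was higher in diffMMS than in MMS (2.60, limma adjusted p 1.56e-07). Between TMS and MMS Acta2 was not called (-0.17, limma adjusted p 0.515), nor were Myl9 (0.29), Mylk (-0.02), Cnn1 (0.17) and Myh11 (-0.02). The part of these cells in the Notch3 result was not tested.

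Notch2, a receptor close to Notch1 in structure, had probe sets that went different ways. Probe set 1455556_at read 7.57, 7.88 and 7.61 in TMS, 8.02, 8.15 and 7.98 in MMS, and 7.24, 7.71 and 7.55 in diffMMS, highest in MMS. It was lower in diffMMS than in MMS, with a difference of -0.55 (-0.82 to -0.29, limma adjusted p 0.00457), and TMS minus MMS was -0.37 (-0.63 to -0.10, limma adjusted p 0.0674) although the arrays did not overlap. This difference was called under 5 alternatives (adjusted p 0.0279 to 0.0445), the values as deposited and centred arrays among them. Probe set 1451889_at read 6.51, 6.38 and 6.29 in TMS, 6.23, 6.15 and 6.13 in MMS, and 6.51, 6.18 and 6.38 in diffMMS, lowest in MMS. Its differences of 0.23 (TMS minus MMS, limma adjusted p 0.135) and 0.19 (diffMMS minus MMS, limma adjusted p 0.137) did not pass the test. No direction for Notch2 can be drawn from the probe sets jointly.

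Notch4, known mostly from endothelium, gave small differences. Probe set 1449146_at read 5.16, 5.03 and 5.00 in TMS, 5.21, 5.15 and 5.24 in MMS, and 5.27, 5.19 and 5.30 in diffMMS. TMS lay below diffMMS without overlap, with a difference of -0.19 (-0.32 to -0.06, limma adjusted p 0.0342), which was lost under 7 alternatives (adjusted p 0.0509 to 0.110), among them those without TMS array 2 or 3, MMS array 1, or diffMMS array 1 or 3. At 1456263_at no difference exceeded 0.06 in size, and none passed. The Notch4 probe sets were dim, with mean log2 intensities at percentiles 17.4 (1449146_at) and 25.0 (1456263_at) of all probe sets. Neither was tested under the filter that left out the dimmest probe sets, so that alternative could not keep or end the Notch4 call. Of 11 endothelial markers 6 were lower in TMS than in diffMMS and 0 higher, with sums of 924 to 1018 against 1182 to 1236, and sums of 1016 to 1057 in MMS. In TMS against MMS, where Notch4 was not called, 4 were lower and 0 higher. In diffMMS against MMS 2 were higher and 1 was lower.

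Of the ligands, Dll1, a Delta-like ligand, was the one that differed. It read 8.39, 8.41 and 7.97 in TMS, 7.25, 7.17 and 7.17 in MMS, and 7.45, 7.29 and 7.30 in diffMMS. Every TMS array lay above every other array. TMS exceeded MMS by 1.06 (0.82 to 1.30), 2.09-fold, with a limma adjusted p of 8.69e-05. TMS exceeded diffMMS by 0.91 (0.68 to 1.15), 1.89-fold, with a limma adjusted p of 7.64e-05. MMS and diffMMS differed by 0.15 (-0.09 to 0.39, limma adjusted p 0.325).

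Jag1 and Jag2, the Jagged ligands, were not called in any of the 3 comparisons with quantile normalization, but some of their differences between diffMMS and MMS were called under alternatives. For Jag1, 1421105_at read 5.91, 5.96 and 6.10 in TMS, 5.96, 5.79 and 5.81 in MMS, and 6.14, 6.11 and 5.94 in diffMMS, and 1421106_at read 5.01, 5.02 and 5.27, then 5.01, 4.91 and 5.05, then 5.14, 5.19 and 5.21. TMS and MMS overlapped at both, with differences of 0.14 (-0.04 to 0.32, limma adjusted p 0.321) and 0.11 (-0.05 to 0.26, limma adjusted p 0.364). DiffMMS minus MMS was 0.21 (0.03 to 0.39, limma adjusted p 0.0684) and 0.19 (0.03 to 0.34, limma adjusted p 0.0611), just past the threshold. Both were called with the values as deposited and with centred arrays, 1421105_at under 4 alternatives in all (adjusted p 0.0192 to 0.0499) and 1421106_at under 5 (0.0068 to 0.027). Of these, 1421106_at was dim, with a mean log2 intensity at percentile 16.0 of all probe sets. It was not tested under the filter that left out the dimmest probe sets. For Jag2, 1426430_at read 6.90, 6.82 and 6.81 in TMS, 6.71, 6.87 and 6.87 in MMS, and 7.04, 6.88 and 7.10 in diffMMS, and 1426431_at read 5.87, 5.89 and 5.82, then 5.81, 5.77 and 5.76, then 5.82, 5.92 and 6.01. The diffMMS arrays lay above those of MMS at both Jag2 probe sets without passing, by 0.19 (0.01 to 0.37, limma adjusted p 0.0921) and 0.13 (-0.01 to 0.28, limma adjusted p 0.14). The former was called without diffMMS array 2 (adjusted p 0.0468) and the latter under 2 alternatives, 1 of them the values as deposited (0.0317 to 0.049). TMS minus MMS was 0.03 (-0.15 to 0.21, limma adjusted p 0.859) and 0.08 (limma adjusted p 0.502).

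Among the targets, Hey1 changed most. It read 8.79, 8.31 and 8.51 in TMS, 7.09, 7.12 and 7.07 in MMS, and 7.22, 7.15 and 7.13 in diffMMS. TMS lay far above both others, which lay close together. TMS exceeded MMS by 1.44 (1.21 to 1.67), 2.71-fold, with a limma adjusted p of 5.7e-06. TMS exceeded diffMMS by 1.37 (1.14 to 1.60), 2.59-fold, with a limma adjusted p of 1.68e-06. DiffMMS minus MMS was 0.07 (-0.16 to 0.30, limma adjusted p 0.648). Both TMS calls of Hey1 and both of Dll1 were kept under all alternatives tried.

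Hes1, a repressor that is a target in most tissues with Notch activity, gave a smaller and less separated difference. It read 7.78, 7.48 and 7.53 in TMS, 7.19, 7.36 and 7.58 in MMS, and 7.21, 7.15 and 7.11 in diffMMS. TMS and MMS overlapped, because MMS array 3 lay above 2 of the TMS arrays. TMS minus MMS was 0.22 (-0.01 to 0.45, limma adjusted p 0.211), while TMS exceeded diffMMS by 0.44 (0.21 to 0.67), 1.36-fold, with a limma adjusted p of 0.0107.

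Heyl, a Hey relative, ran opposite to Hey1 in TMS against MMS. Probe set 1419302_at read 6.65, 6.47 and 6.57 in TMS, 7.00, 7.18 and 6.84 in MMS, and 6.72, 6.61 and 6.41 in diffMMS, highest in every MMS array. It was lower than in MMS in TMS, with a difference of -0.45 (-0.68 to -0.22, limma adjusted p 0.0144), and in diffMMS, with one of -0.43 (-0.66 to -0.20, limma adjusted p 0.0083). Leaving out TMS array 2 or MMS array 2 ended the TMS call (adjusted p 0.0577 to 0.0728). The probe set 1419303_at read 6.56, 6.36 and 6.21 in TMS, 6.68, 6.63 and 6.62 in MMS, and 6.67, 6.59 and 6.67 in diffMMS, with MMS and diffMMS overlapping. TMS lay below both, with differences of -0.26 from diffMMS (limma adjusted p 0.0488, lost under 12 alternatives, among them those without any 1 array other than TMS array 1, with adjusted p up to 0.163) and -0.26 from MMS (-0.46 to -0.07, limma adjusted p 0.0698). The third, 1438886_at, read 5.75 to 5.94 over all 9 arrays, with no difference over 0.08 in size and none that passed. The Heyl probe sets hence agreed in sign for TMS minus MMS, with -0.45, -0.26 and -0.08, and 1 of the 3 passed.

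**Figure D3:**
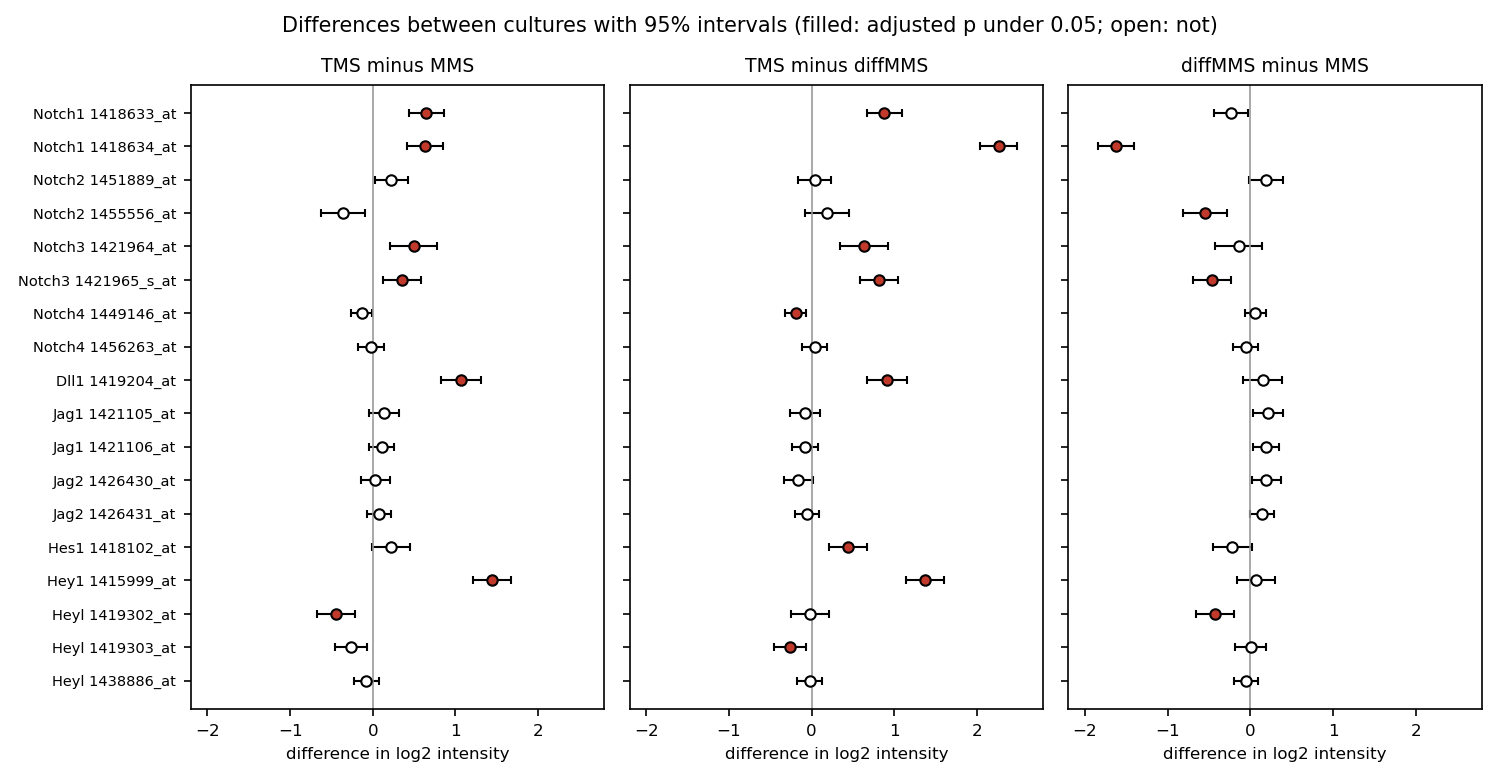
Difference in log2 intensity for each of the 18 probe sets in the 3 comparisons, with 95% intervals from limma; filled points had an adjusted p under 0.05. Notch1, Notch3, Dll1 and Hey1 lie to the right of 0 in both TMS comparisons, and no filled point lies to the right in diffMMS minus MMS.

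For the 3 genes with the largest moderated F over the groups, the other genes with the most similar profile were listed by the root mean square difference between centred log2 values over the 9 arrays, with 1 probe set per gene. For Notch1 1418634_at they were Ccnd1, which encodes cyclin D1 (0.177), Mtss1 (0.187) and Crabp2, a retinoic acid binding protein (0.216), over 20378 probe sets. Ccnd1 had means of 9.02 in TMS, 8.35 in MMS and 6.94 in diffMMS. For Hey1 they were Papln (0.106), 4931406C07Rik (0.108) and Lcp1, an actin bundling protein of blood cells (0.130), and for Dll1 they were Tinagl1 (0.0403), Klc3 (0.0956) and Ano1, a chloride channel (0.102), over 20379 probe sets each. Tinagl1 had means of 7.75, 6.69 and 6.79. These are similarities over 9 arrays that share their groups, and they are given as a description.

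The rest of the pathway was covered by a list of 54 genes, of which 46 were measured, each by its probe set with the highest mean. Between TMS and MMS 0 were higher and 2 lower, where 13.3% of all genes were called, 6.21% higher and 7.11% lower. Between TMS and diffMMS 2 were higher and 6 lower, where 24.9% were called, 12.3% higher and 12.7% lower. Between diffMMS and MMS 11 were higher and 4 lower, where 34.1% were called, 18% higher and 16.1% lower. This last split depended on the scaling, with 6 higher and 6 lower where arrays were centred on their median and 10 and 6 with the values as deposited. The list's median log2 differences were 0.03, -0.07 and 0.12, beside 0.00, -0.03 and 0.05 over all genes. Without 1 array at a time the counts were 0 to 3 in TMS minus MMS, with 1 call without TMS array 1, MMS array 1 or MMS array 3 and 0 without MMS array 2. The TMS minus diffMMS count was 4 without TMS array 2 and 5 without diffMMS array 2, and the diffMMS minus MMS count was 8 without MMS array 2 and 6 without MMS array 3. No gene of the list was called in all 3 comparisons at its probe set with the highest mean, whereas Kat2b was at the one with the largest F (1450821_at). Against the 0 higher genes by limma in TMS minus MMS, 3 had an unadjusted p under 0.05, and 4 were called (Numb, Nedd4, Snw1 and Kat2b) where the probe set with the largest F stood for a gene. That choice takes the probe set that differs most among the groups, so it favours calls for any gene. The share of all genes called under it was not computed, so nothing is drawn from these 4.

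Among 5 other ligands 1 was called, in diffMMS against MMS. It was Dlk1, a Delta-like protein that lacks the receptor-binding domain of classical ligands. It read 9.68, 10.47 and 7.67 in TMS, 10.52, 10.36 and 9.99 in MMS, and 8.38, 8.17 and 8.01 in diffMMS. TMS array 3 lay below all diffMMS arrays, and TMS array 2 within the range of MMS. DiffMMS minus MMS was -2.11 (SE 0.502, limma adjusted p 0.00718). Of 5 glycosyltransferases, which put sugars on the receptor, Pofut1 and Poglut1 rose in diffMMS against MMS, Pofut1 by 0.46 (limma adjusted p 0.00203), and Mfng, a Fringe, was lower in TMS than in diffMMS (-0.25, limma adjusted p 0.0292). Of 3 ubiquitin ligases that activate ligands 0 passed in any comparison by limma at the probe set with the highest mean, and Neurl1a passed in diffMMS minus MMS at 1422251_at (0.22, limma adjusted p 0.0484).

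Of 6 receptor proteases, Adam17, which can make the outer cut, read 8.41, 8.36 and 8.46 in TMS, 8.78, 8.90 and 8.76 in MMS, and 8.41, 8.17 and 8.01 in diffMMS. It was lower than in MMS by differences of -0.40 in TMS (limma adjusted p 0.0168) and -0.62 in diffMMS (limma adjusted p 0.00051). Adam10, of the same list, gave 0.24 for TMS minus MMS (limma adjusted p 0.0686) and 0.14 for diffMMS minus MMS (limma adjusted p 0.215). At its probe set 1428103_at, the one with the largest F, diffMMS minus MMS was -0.51 (limma adjusted p 0.0119), so its direction depended on the probe set. Psenen, a gamma-secretase subunit, was higher in TMS than in diffMMS by 0.31 (limma adjusted p 0.0104). Of 9 genes of receptor turnover and inhibition, 2 were lower in TMS than in diffMMS (Numbl and Nedd4) and 2 higher in diffMMS than in MMS (Numbl and Fbxw7). Numbl, a Numb relative that holds Notch back, was in both sets, with -0.56 (limma adjusted p 0.0015) and 0.34 (limma adjusted p 0.0199).

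Of 12 nuclear factors, 6 were higher and 1 lower in diffMMS than in MMS. For 1 of the 6, the acetyltransferase Kat2a, the probe sets disagreed, with 0.39 at 1422971_at (limma adjusted p 0.0276) and -0.48 at 1422972_s_at (limma adjusted p 0.000424). Rbpj, the DNA-binding partner of Notch, read 8.83, 9.33 and 8.91 in TMS, 8.89, 8.84 and 8.85 in MMS, and 8.67, 8.68 and 8.49 in diffMMS. TMS exceeded diffMMS by 0.41 (limma adjusted p 0.0237) and overlapped MMS (0.16, limma adjusted p 0.414). Of the 12, 1 was higher in TMS than in diffMMS (Rbpj) and 2 were lower (Maml2 and Kat2b). The Mastermind gene Maml2 gave -0.38 there (limma adjusted p 0.00698) and 0.33 for diffMMS minus MMS (limma adjusted p 0.013). Maml1 gave 0.31 for diffMMS minus MMS (limma adjusted p 0.0169) and was not called in TMS minus diffMMS (-0.18, limma adjusted p 0.155). Kat2b, related to Kat2a, gave -0.71 for TMS minus diffMMS (limma adjusted p 0.000143) and 0.61 for diffMMS minus MMS (limma adjusted p 0.000368). At its probe set 1450821_at these were -0.34 (limma adjusted p 0.00162) and 0.58 (limma adjusted p 2.08e-05), so the size depended on the probe set. For TMS minus MMS the sign did too. It was 0.24 at 1450821_at (limma adjusted p 0.0204) and -0.10 at 1434037_s_at, the probe set with the highest mean (limma adjusted p 0.534). The deacetylase Hdac1 was lower than in MMS in TMS (-0.30, limma adjusted p 0.0223) and in diffMMS (-0.27, limma adjusted p 0.0178). Of 6 other Hes and Hey genes 0 passed in TMS minus MMS by limma, Hes5 was lower in TMS than in diffMMS (-0.27, limma adjusted p 0.0409), and Hes3 was higher in diffMMS than in MMS (0.22, limma adjusted p 0.0369).

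**Figure D4:**
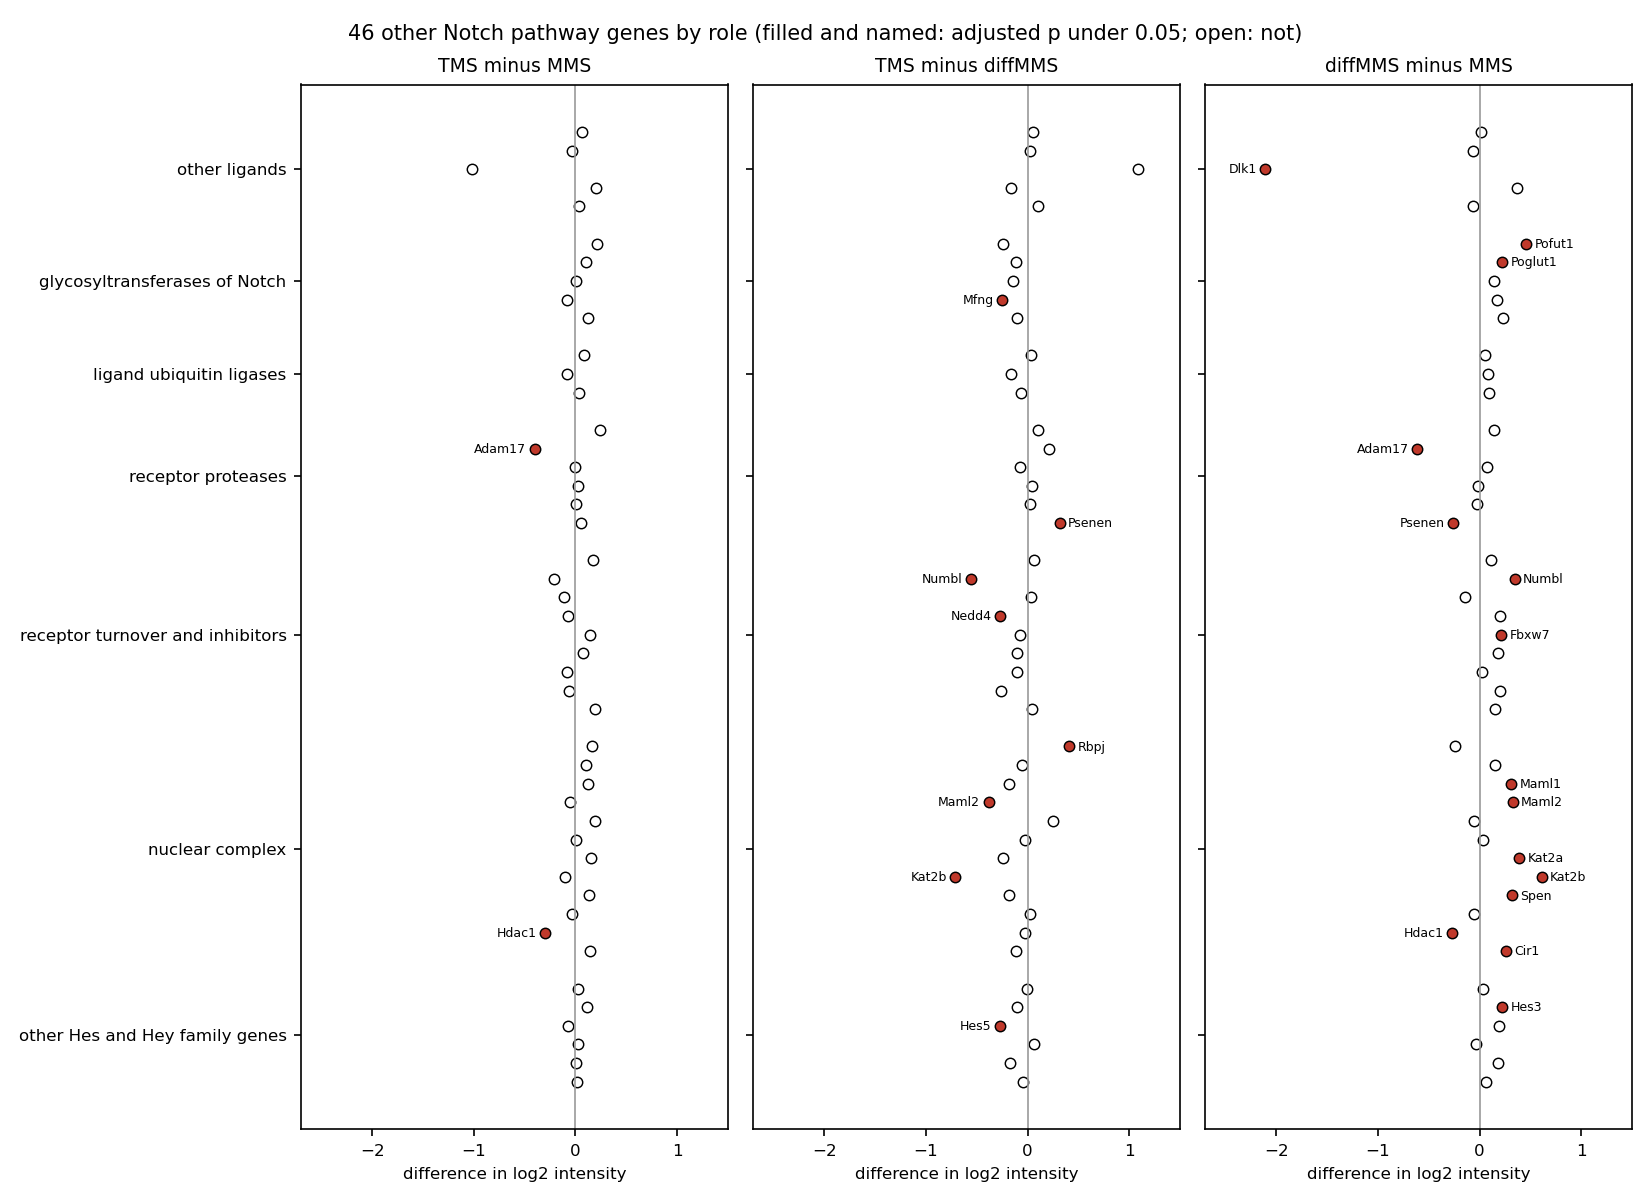
Difference in log2 intensity for the 46 other pathway genes in the 3 comparisons, grouped by role, with 1 point per gene; filled and named points had an adjusted p under 0.05. In TMS minus MMS 2 points are filled, and Dlk1 lies farthest from 0 in diffMMS minus MMS, at -2.11.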

How the data were processed

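Total RNA of 9 cultures was hybridised to MOE430A arrays, 1 array per culture. The authors deposited 1 intensity per probe set and array on a linear scale, already summarised and scaled in a way not given in the sources used here, and named GeneSpring for their analysis. Array medians ran from 83.96 to 88.55, and the number of arrays limits the precision. Groups came from the labels, and the labels describe the cultures as independent populations. Of 22690 probe sets, 64 controls were left out. Values were log2(intensity + 8.668), the added constant being 10% of the median value, quantile normalized, and fitted in limma 3.58.1 (R 4.3.3, lmFit and eBayes with an intensity trend) over all 9 arrays, with 6 residual degrees of freedom. P-values were adjusted by Benjamini-Hochberg over 22626 probe sets and called at 0.05. The fold changes are on this log2 scale, which understates changes of dim probe sets. The script was tested on simulated data.

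Symbols came from the platform annotation, which gave 1 symbol to 20380 probe sets, several to 691 and none to 1555. The members, the pathway list and the marker lists were chosen with earlier results of these data known. Named were all members, pathway genes called in all comparisons or with the largest rise or fall of a role, and the 3 nearest profiles of the 3 members with the largest F. Other called pathway genes (Poglut1, Nedd4, Fbxw7, Numb, Snw1, Kat2a, Neurl1a, Adam10, Maml1, Maml2) were named after their values were seen. Alternatives were other scalings, pseudocounts, a filter leaving out the dimmest 30% of probe sets, variance models, array weights, fits of only the groups compared, a threshold of 0.01 and leaving out each array. Figures were drawn with matplotlib.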

Additional observations from a re-analysis of the deposited data

How the results depend on the processing

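No paired analysis was possible because the labels give no replicate numbers that the groups share. Of 963 recomputed member differences, 887 kept their direction and their side of the threshold, 33 fell out of the calls, 25 entered them and 18 changed sign, and 32 of the 54 differences did none of these under any alternative. At a threshold of 0.01 the members called in TMS minus MMS were 4, all probe sets called were 1549, 3175 and 4456 (TMS minus MMS, TMS minus diffMMS, diffMMS minus MMS, from 3227, 5360 and 7495), and listed pathway genes were 0, 3 and 5. In diffMMS minus MMS the members called were 8 with values as deposited, 7 with centred arrays and 7 with array weights, against 4. All probe sets called there were 8380, 7566 and 8790, against 7495. Array weights gave 5849 probe sets and 4 pathway genes in TMS minus MMS. There the probe set with the largest F gave 6 pathway genes, with no share over all genes computed for that choice. Fitting only the groups compared gave 5 pathway genes in TMS minus diffMMS. With each array left out in turn, TMS minus MMS gave 1865 (without MMS array 2) to 4081 probe sets and 0 to 3 pathway genes, TMS minus diffMMS gave 4 to 11 pathway genes, and diffMMS minus MMS gave 6 to 17. The cause of these moves was not tested.

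Every change of sign was in a difference that was not called. With values as deposited, Notch4 1456263_at was 0.0372 in TMS minus MMS and 0.0304 in diffMMS minus MMS, and Heyl 1438886_at was 0.0308 in diffMMS minus MMS. Heyl 1419303_at in diffMMS minus MMS was -0.00541 with centred arrays, -0.00954 with array weights and between -0.014 and 0.028 with single arrays left out. With single arrays left out, the ranges that crossed 0 were -0.051 to 0.113 for Notch2 1451889_at, -0.104 to 0.0531 for Heyl 1419302_at and -0.080 to 0.018 for Heyl 1438886_at in TMS minus diffMMS, -0.069 to 0.034 for Notch4 1456263_at and -0.022 to 0.056 for Jag2 1426430_at in TMS minus MMS, and -0.096 to 0.0014 for Heyl 1438886_at in diffMMS minus MMS.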
